A study of Mus musculus with 4 samples.

Results

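The 2-oxoglutarate dioxygenases are enzymes that spend molecular oxygen and 2-oxoglutarate, a citric acid cycle intermediate, to hydroxylate or demethylate a substrate. Described here are 40 of them, chosen by gene symbol: the JmjC histone demethylases and their relatives, the TET enzymes, the ALKBH family with Fto, the collagen prolyl and lysyl hydroxylases, and Ogfod1 and Ogfod2. The deposited table had rows for 39 of these among its 28987 genes, and Jmjd7 expression was not analysed here. Of the 39, 34 passed the filter of at least 1 TPM in at least 2 libraries, among 11909 genes that did. All 34 read at least 1 TPM in every library, so the filter fixed no member's direction. Kdm4d, Hr, P4ha2, P4ha3 and Plod2 did not pass it.

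RNA was sequenced from c-Kit-positive bone marrow cells of C57BL/6 mice, a fraction rich in haematopoietic stem and progenitor cells that was collected on CD117 magnetic beads. All 4 libraries came from MllPTD/WT mice, in which 1 Mll (Kmt2a) allele carries a partial tandem duplication, with Runx1 Flox/Flox and Mx1-Cre, a recombinase driven by an interferon-inducible promoter that is active in many cells besides blood progenitors. The 2 Hif1a-intact libraries had no floxed Hif1a, and the 2 Hif1a-null libraries were also Hif-1alpha Flox/Flox. No library without the Mll duplication and the floxed Runx1 entered the comparison, and the labels give neither the animals' age nor whether the libraries of 1 group are from different mice. The limma p-values therefore measure only the spread between these libraries, which may be technical. All 4 sample titles call the libraries Runx1null, and those of the Hif1a-null pair add Hif1anull. The comparison asks how these enzymes' transcripts stand with and without Hif1a in progenitors with the Mll duplication and floxed Runx1, labelled Runx1null.

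Because these enzymes need oxygen and 2-oxoglutarate together with ferrous iron, some of them act as sensors. The best known are the EGLN prolyl hydroxylases, which mark the HIF alpha subunits for destruction while oxygen is present. HIF-1 in turn induces genes of the same enzyme class in low oxygen, among them Egln1, Egln3, Kdm3a, Kdm4b, Kdm4c, P4ha1, P4ha2, Plod1 and Plod2. In blood progenitors the demethylases are known for their part in chromatin state, and Tet2 is a gene recurrently mutated in myelodysplasia.

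Hif1a transcript did not check the deletion. Its TPM was 100 and 75.2 with Hif1a intact, and 98.8 and 113 in the Hif1a-null pair (log2 fold change 0.28, limma adjusted p = 0.479). A value summed over the gene includes exons that Cre leaves in place, so directions below rest on the labels. Runx1, floxed and labelled null in all 4 libraries, read 73.6 and 76.6 against 48.4 and 46.7 TPM (limma adjusted p = 0.0636). Any effect of that gap and of Hif1a status cannot be told apart. Of 7 stem and progenitor markers 6 were tested, 4 with a log2 fold change below 0 and 2 above. Only Hlf was called, higher at 4.27 and 2.8 against 15.1 and 13.8 TPM (limma adjusted p = 0.022). Procr went the other way, at 10.4 and 7.33 against 3.52 and 2.94 TPM. Its log2 fold change of -1.205 just missed the threshold (limma adjusted p = 0.0509). Kit read 128 and 126 against 121 and 102 TPM, and Cd34 244 and 251 against 179 and 206 TPM. Both were under their Hif1a-intact level in both Hif1a-null libraries (limma adjusted p = 0.517 and 0.231). Summed TPM of most marker lists of more mature cells moved with the groups. The 10 granulocyte markers summed to 28693 and 24437 TPM in the Hif1a-intact and 35822 and 34617 TPM in the Hif1a-null libraries (6 called higher). Of that list Mpo was lower in both Hif1a-null libraries, without being called, and the groups of Elane and Camp overlapped. The 11 erythroid markers read 110 to 158 TPM in the Hif1a-intact and 5863 to 6248 TPM in the Hif1a-null libraries (10 called higher), and 8 megakaryocyte markers 28.9 to 32.5 and 160 to 182 TPM (6 called higher). The 8 B-lineage markers read 7.73 to 12.2 and 40.3 to 43.0 TPM (6 called higher), and the 5 mast cell and basophil markers 316 to 562 and 63.6 to 66.9 TPM (2 called lower, with Fcer1a at 0 in 3 libraries). Of the T and NK list 6 of 7 tested markers were called higher, while the list's sum, carried by Nkg7, overlapped (184 and 290.0 against 187 and 215 TPM). The 9 monocyte and macrophage markers summed to 579 and 612 against 475 and 525 TPM, with 2 called higher and 2 lower. The filter fixed the direction of 3 erythroid, 1 megakaryocyte, 5 B-lineage, 4 T and NK and 2 monocyte and macrophage markers. No marker of these lists was at 0 in all libraries. The part of these cell types in the members' values was not tested, and in bulk RNA fewer cells of a type and less RNA per cell cannot be told apart.

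None of the 34 tested dioxygenases passed the test, where 7.27% of all tested genes did (5.25% upwards and 2.02% downwards, by limma on log2(TPM + 1), adjusted p under 0.05). At an unadjusted p under 0.05, 8 members were below and 2 above their Hif1a-intact level, against 11.9% and 11.4% of all tested genes. The median log2 fold change, Hif1a-null minus Hif1a-intact, was -0.12 over the members and -0.06 over all tested genes. It ran from -0.83 (Kdm2b) to 0.70 (Alkbh7), and 23 of the 34 lay below 0, as did 57.5% of all tested genes. In 17 members both Hif1a-null libraries were under both Hif1a-intact libraries and in 4 both were over them, against 32.3% and 22.7% of all tested genes, and in 13 the groups overlapped. The groups were apart in 55.0% of all tested genes. No tested member reached 2-fold on the log2(TPM + 1) scale, as 8.90% of all tested genes did. The members' median absolute log2 change of 0.26 was near the 0.25 of all tested genes. With Hif1a-intact replicate 1 left out 3 members passed (Kdm2b, Plod3 and Alkbh7), and with Hif1a-intact replicate 2 left out 1 did (Alkbh6), each time with the lone intact library assumed to vary like the Hif1a-null pair. Without Hif1a-null replicate 1 none did, nor without Hif1a-null replicate 2, where the calls over all genes also fell from 866 to 19 and to 0. The calls of the granulocyte, B-lineage, T and NK, and mast cell and basophil markers were lost without either Hif1a-null library. Among the 866 called genes the smallest absolute log2 fold change was 0.73, a size that only Kdm2b and Plod3 among the members exceeded, so the count of 0 does not show that the members were alike in both groups. With 2 libraries against 2, an exact permutation test of a single gene cannot go below p = 0.333 here.

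**Figure D1:**
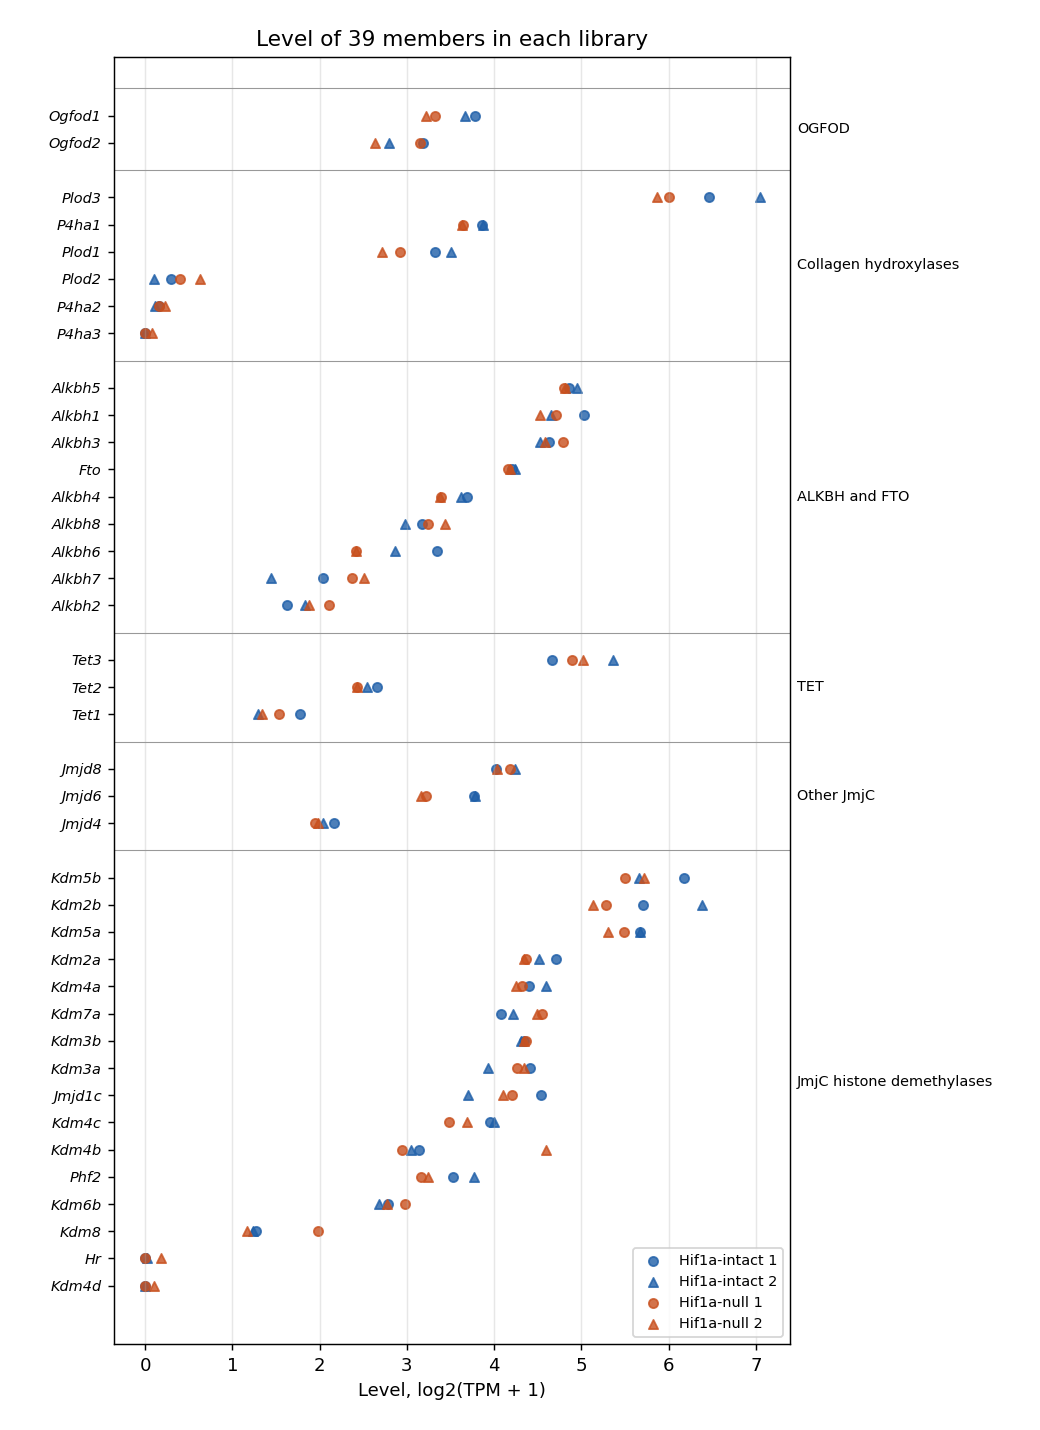
Level of each of the 39 members on the log2(TPM + 1) scale (x axis), grouped by subfamily, with 1 point per library: blue for Hif1a-intact, orange for Hif1a-null, circles for replicate 1 and triangles for replicate 2. Plod3, Kdm5b, Kdm2b and Kdm5a lie at the top, Plod2, P4ha2, P4ha3, Hr and Kdm4d near 0, and Kdm4b has a single high point, 23.2 TPM in Hif1a-null replicate 2.

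Among the 16 JmjC histone demethylases, which remove methyl groups from lysines of histone tails, 14 were tested and none passed. On either side of 0 lay 7 members, and the median log2 fold change was -0.09. Summed over the subfamily, TPM was 336 and 331 in the Hif1a-intact and 277 and 289 in the Hif1a-null libraries. That sum was carried by Kdm5a and Kdm5b, which erase the methyl mark of active promoters, and by Kdm2b.

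Kdm2b, which also brings a variant Polycomb complex to CpG islands, had the lowest fold change of all members. It (ENSMUSG00000029475, GRCm38 chromosome 5, 122870665 to 122989823, minus strand) read 51.1 and 82.4 TPM with Hif1a intact against 37.9 and 34.2 TPM without it. The groups did not overlap, but the intact pair lay farther apart than the lower intact library did from the null pair. Means were 66.8 ± 22.2 and 36.0 ± 2.65 TPM (SD, n = 2 each), a log2 fold change of -0.83 (95% interval -1.57 to -0.10, limma adjusted p = 0.176). Without Hif1a-intact replicate 1 the fold change was -1.17 with a limma adjusted p of 0.0422, over a range of 0.0422 to 0.750 across all alternatives. Kdm2b shares 615 identical bases with the processed pseudogene Gm12397, which averaged 88.9 TPM, so its own level is uncertain. Summed with that copy the log2 fold change was -0.83. Kdm2a, its paralogue, read 25.2 and 21.8 against 19.7 and 19.3 TPM (log2 fold change -0.25, limma adjusted p = 0.377).

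Phf2 and Kdm4c were also below their Hif1a-intact level in both Hif1a-null libraries. Phf2, a demethylase of the silent-chromatin mark, read 10.5 and 12.6 against 7.98 and 8.47 TPM (ENSMUSG00000038025, chromosome 13, 48801750 to 48871119; log2 fold change -0.44, 95% interval -0.84 to -0.03, limma adjusted p = 0.196). Kdm4c, which erases the trimethyl mark of heterochromatin, read 14.5 and 15.0 against 10.2 and 11.9 TPM (log2 fold change -0.39, limma adjusted p = 0.212). Kdm5a read 50.2 and 50.1 against 43.9 and 38.5 TPM, again without overlap (limma adjusted p = 0.324), while Kdm5b read 71.5 and 49.5 against 44.2 and 51.8 TPM and its groups overlapped.

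Kdm7a was the only one of these 14 with both Hif1a-null libraries over both Hif1a-intact ones. It acts on methyl marks of silent chromatin, and it read 15.9 and 17.6 against 22.5 and 21.5 TPM (log2 fold change 0.38, 95% interval 0.02 to 0.74, limma adjusted p = 0.199). Kdm6b, the inducible eraser of the Polycomb mark, read 5.91 and 5.39 against 6.89 and 5.83 TPM, with overlapping groups (log2 fold change 0.14, 95% interval -0.25 to 0.54). Kdm4b, singled out after its values were seen, read 7.82, 7.24 and 6.70 TPM in 3 libraries and 23.2 TPM in Hif1a-null replicate 2. Its share of the summed Kdm4 family TPM was 16% to 18.7% in those 3 and 43.6% in the last. Without Hif1a-null replicate 2 its log2 fold change went from 0.68 to -0.15. A similar single high value was seen for Kdm8, with 2.96 TPM in Hif1a-null replicate 1 and 1.25 to 1.41 TPM in the others.

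The remaining demethylases overlapped or differed by small amounts. Kdm3b, one of the erasers of lower methylation states in silent chromatin, read 18.8 to 19.7 TPM over all 4 libraries (log2 fold change 0.03, 95% interval -0.30 to 0.36). Its paralogue Jmjd1c read 22.2 and 12 against 17.4 and 16.2 TPM, so the intact pair enclosed the null pair. Kdm4a read 20.1 and 23.1 against 18.9 and 18.0 TPM (log2 fold change -0.21, limma adjusted p = 0.447). Kdm4d was listed at 0 in 3 libraries and at 0.0747 TPM in Hif1a-null replicate 2, and Hr, a nuclear receptor corepressor, did not exceed 0.132 TPM. The lysine demethylases Kdm1a and Kdm1b, which use flavin and not 2-oxoglutarate, read 27.6 to 32.4 and 7.90 to 13.1 TPM with overlapping groups. None of 23 histone, DNA and RNA methyltransferases passed either (median log2 fold change -0.07), beside 7.27% of all tested genes. An unadjusted limma p under 0.05 was reached by 0 of them, beside 23.2% of all tested genes.

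**Figure D2:**
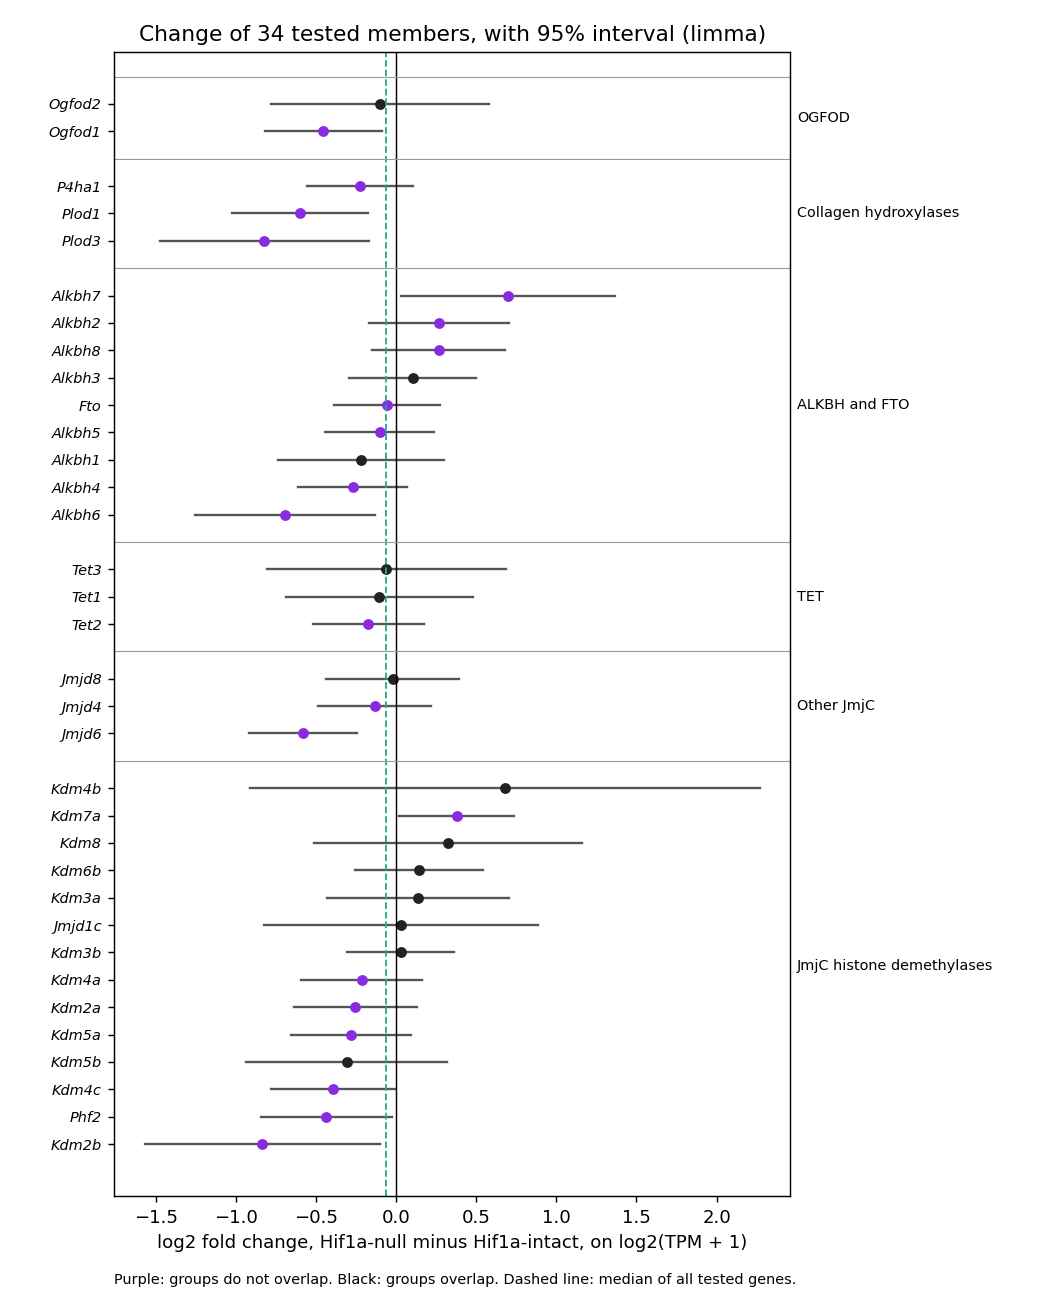
Log2 fold change, Hif1a-null minus Hif1a-intact on log2(TPM + 1), of the 34 tested members by subfamily, with the 95% interval from limma; purple points mark members whose groups did not overlap and the dashed line the median of all tested genes, -0.06. The points run from -0.83 to 0.70, most intervals cross 0, and the 3 tested collagen hydroxylases lie left of 0, as did 57.5% of all tested genes.

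Of the JmjC proteins that are mainly hydroxylases, Jmjd6 had the smallest p of all members. Jmjd6, a lysyl hydroxylase of splicing factors, read 12.6 and 12.7 TPM in the Hif1a-intact and 8.32 and 7.97 TPM in the Hif1a-null libraries (ENSMUSG00000056962, chromosome 11, 116837432 to 116843449, minus strand). Both pairs were tight, at 12.7 ± 0.0880 and 8.14 ± 0.247 TPM (SD, n = 2 each), and the gap between them was far wider than either spread. The log2 fold change was -0.58 (95% interval -0.92 to -0.25), which missed the threshold (limma adjusted p = 0.0799, and 0.0587 to 0.730 over the alternatives). Jmjd6 shares 172 exon bases on opposite strands with Mettl23, and the strand setting of the quantification is not given in the sources used here. Jmjd4, which hydroxylates a translation release factor, read 3.47 and 3.10 against 2.86 and 2.96 TPM (limma adjusted p = 0.615). It overlaps Snap47 by 307 bases on opposite strands, and summed with Snap47 its log2 fold change turned from -0.13 to 0.25. Jmjd8 read 15.2 and 17.9 against 17.1 and 15.4 TPM, with overlap.

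The TET enzymes, which oxidise 5-methylcytosine in DNA as a step towards its removal, differed little between the groups, and Tet3 was the most abundant of the 3 in every library. Tet3 made up 76% and 86.5% of the summed TET TPM in the Hif1a-intact and 82.1% and 84.2% in the Hif1a-null libraries. It read 24.4 and 40.3 against 28.7 and 31.5 TPM, the null pair lying inside the intact pair (log2 fold change -0.06, 95% interval -0.81 to 0.69). Tet2 read 5.29 and 4.85 against 4.38 and 4.39 TPM (ENSMUSG00000040943, chromosome 3, 133463679 to 133545139, minus strand). Its groups were apart, but the log2 fold change was only -0.17 (95% interval -0.52 to 0.17, limma adjusted p = 0.496). Tet1 read 2.42 and 1.46 against 1.89 and 1.53 TPM (limma adjusted p = 0.826). The intervals of Tet1 (-0.69 to 0.48) and Tet3 were wide beside these fold changes.

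The ALKBH family, relatives of a bacterial DNA repair enzyme that act on DNA, RNA and proteins, held members at both ends of the range. Of 9 tested, 5 had a fold change below 0 and 4 above, the median being -0.06 on the log2 scale, and the summed TPM was 135 and 123 against 125 and 120. Alkbh6 read 9.19 and 6.29 TPM in the Hif1a-intact and 4.35 and 4.33 TPM in the Hif1a-null libraries (ENSMUSG00000042831, chromosome 7, 30308717 to 30314304). Its log2 fold change was -0.69 (95% interval -1.25 to -0.13, limma adjusted p = 0.155), and it was -0.93 without Hif1a-intact replicate 2 (limma adjusted p = 0.0498, range 0.0498 to 0.730 over the alternatives). Alkbh7, a mitochondrial member linked to programmed necrosis, stood at the other end with 3.12 and 1.71 against 4.16 and 4.70 TPM (ENSMUSG00000002661, chromosome 17, 56997339 to 56999322). Its log2 fold change was 0.70 (95% interval 0.03 to 1.37, limma adjusted p = 0.201), and 1.0 without Hif1a-intact replicate 1 (limma adjusted p = 0.0485, range 0.0485 to 0.801). For both genes the intact libraries differed from each other by more than the null libraries did.

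The demethylases of N6-methyladenosine in RNA, Fto and Alkbh5, were among the steadiest members. Fto read 17.5 and 17.9 against 16.9 and 17.1 TPM (log2 fold change -0.06, 95% interval -0.39 to 0.28). Alkbh5 read 28 and 29.9 against 26.8 and 27.0 TPM (log2 fold change -0.10, 95% interval -0.44 to 0.24). Both sets of groups were apart by a narrow margin, and neither gene was near the threshold (limma adjusted p = 0.837 and 0.693). Alkbh2 and Alkbh3, which repair alkylated bases, read 2.09 and 2.55 against 3.32 and 2.69 TPM and 23.7 and 22.1 against 26.6 and 22.9 TPM. Alkbh8, a modifier of the wobble base of transfer RNA, read 7.99 and 6.89 against 8.49 and 9.81 TPM (limma adjusted p = 0.389). Alkbh1 read 31.8 and 24.1 against 25.2 and 22.1 TPM and Alkbh4 11.9 and 11.3 against 9.51 and 9.38 TPM (limma adjusted p = 0.566 and 0.297).

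Ogfod1, which hydroxylates a protein of the small ribosomal subunit, read 12.8 and 11.7 against 9.04 and 8.32 TPM (ENSMUSG00000033009, chromosome 8, 94037198 to 94067921). The groups did not overlap, and the log2 fold change of -0.45 had a 95% interval of -0.81 to -0.09 (limma adjusted p = 0.151). Its relative Ogfod2 read 8.06 and 5.97 against 7.86 and 5.21 TPM, and there the libraries of a group differed more than the groups did (limma adjusted p = 0.859).

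In the collagen hydroxylases, enzymes of the endoplasmic reticulum that modify collagen prolines and lysines, all 3 tested members had both Hif1a-null libraries under both Hif1a-intact ones. The groups were apart in that direction in 32.3% of all tested genes. The subfamily median log2 fold change was -0.60, beside -0.06 over all tested genes, and no member passed the test. Plod3, a lysyl hydroxylase that also glycosylates collagen, was the most abundant of all 39 members. It read 87.5 and 131 TPM in the Hif1a-intact and 63.4 and 57.2 TPM in the Hif1a-null libraries (ENSMUSG00000004846, chromosome 5, 136987019 to 136996648). Means were 110 ± 31.1 and 60.3 ± 4.37 TPM (SD, n = 2 each), a log2 fold change of -0.82 (95% interval -1.48 to -0.17, limma adjusted p = 0.148). Without Hif1a-intact replicate 1 it was -1.11 (limma adjusted p = 0.0445, range 0.0445 to 0.726 over the alternatives). Plod3 shares 529 exon bases on opposite strands with Znhit1, which averaged 25.3 TPM.

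Plod1, the lysyl hydroxylase of the collagen helix, read 9.02 and 10.4 against 6.58 and 5.56 TPM (ENSMUSG00000019055, chromosome 4, 147909753 to 147936767, minus strand). The groups were apart by more than either pair's spread, at a log2 fold change of -0.60 (95% interval -1.02 to -0.18, limma adjusted p = 0.120). P4ha1, a catalytic subunit of collagen prolyl 4-hydroxylase, read 13.5 and 13.6 against 11.5 and 11.4 TPM, tight pairs a small step apart (log2 fold change -0.23, 95% interval -0.56 to 0.11, limma adjusted p = 0.364). The remaining paralogues were near 0. Plod2 read 0.225 and 0.0704 against 0.321 and 0.541 TPM, P4ha2 0.0805 to 0.174 TPM over the 4 libraries, and P4ha3 was listed at 0 in 3 of them. Both Hif1a-null values of Plod2 and P4ha2 were over the Hif1a-intact ones, at levels too low to test. Plod3 carried 90.2% to 92.6% of the summed Plod TPM in every library.

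Partners of these hydroxylases and the collagens they act on lay on different sides of 0: of 9 tested, 3 partners were below and 5 collagens and Ppib above. For 3 of these collagens, Col1a2, Col4a1 and Col5a1, the filter fixed the direction, so their side of 0 is not a result. P4hb, the disulfide isomerase that is the other subunit of prolyl 4-hydroxylase, read 831 and 961 against 551 and 562 TPM (log2 fold change -0.68, limma adjusted p = 0.0758). Colgalt1, a collagen galactosyltransferase, read 46.8 and 37.8 against 27.8 and 29.3 TPM (limma adjusted p = 0.155). Of the 18 listed collagen and partner genes only Col5a1 was called higher (0.291 and 0.0919 against 5.67 and 6.63 TPM, limma adjusted p = 0.00700), a call lost without either Hif1a-null library. Its direction was fixed by the filter, since both Hif1a-intact libraries were under 1 TPM. The main fibrillar collagen Col1a1 read 1.73 and 0.146 against 2.64 and 2.94 TPM. The 9 stromal and endothelial markers summed to 54.9 and 63.0 TPM in the Hif1a-intact and 74.7 and 84.0 TPM in the Hif1a-null libraries, with 2 called higher and 2 lower and none at 0 in every library.

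**Figure D3:**
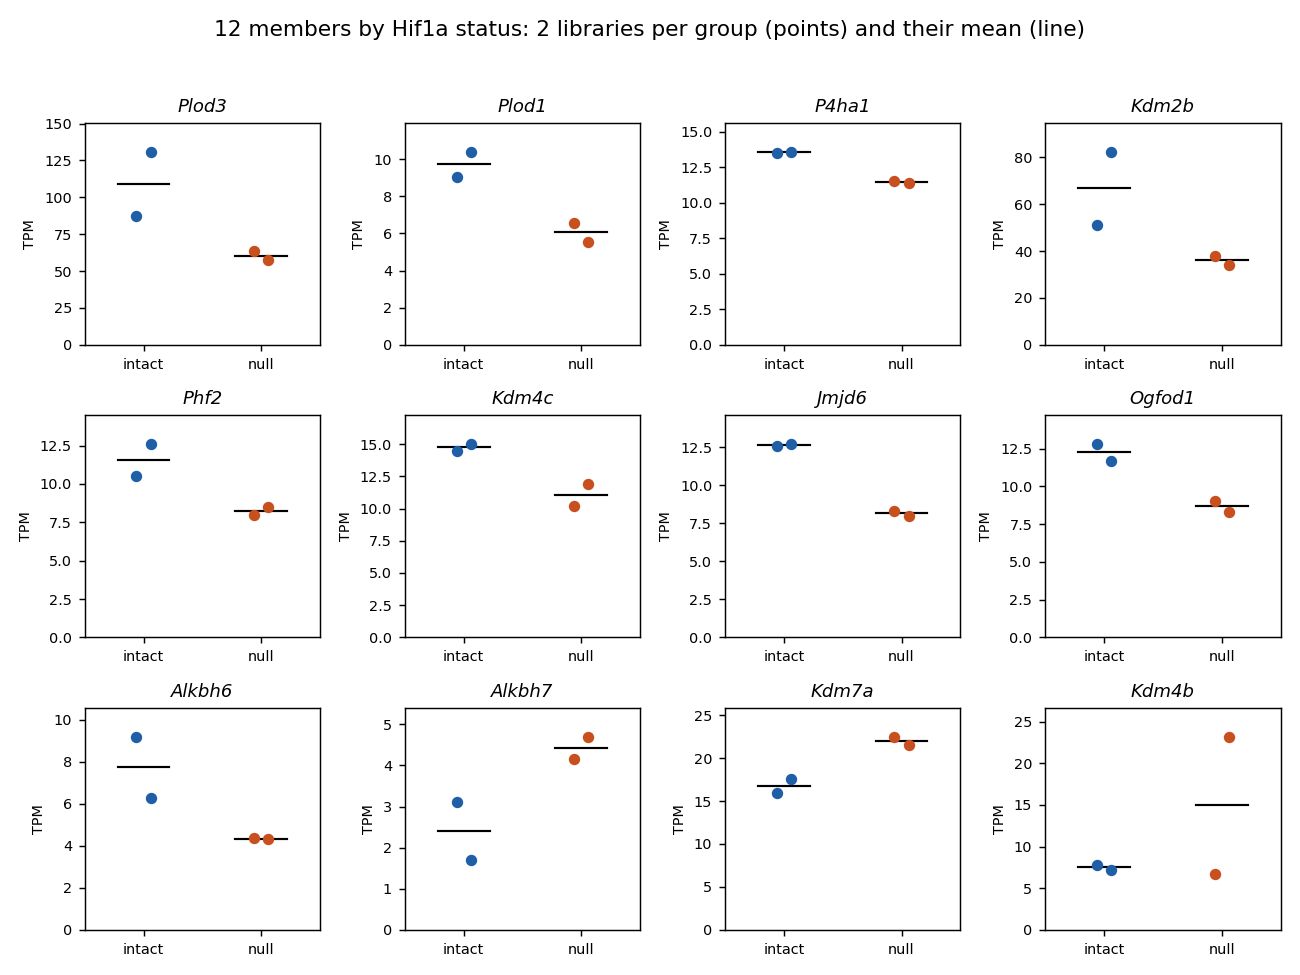
TPM (y axis, from 0) of 12 members in the 2 Hif1a-intact (blue) and 2 Hif1a-null (orange) libraries, with the group mean as a line: the 10 with an unadjusted limma p under 0.05, with P4ha1 and Kdm4b. The Jmjd6 pairs sit at 12.6 to 12.7 and 7.97 to 8.32 TPM, whereas the intact libraries of Kdm2b, Plod3, Alkbh6 and Alkbh7 lie well apart, and Kdm4b is high in 1 library.

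The members known as hypoxia-induced genes were set beside the EGLN enzymes of the same class. Of 7 such members 5 were tested and none passed, with a median log2 fold change of -0.23. Kdm3a, the usual example of a HIF-1-induced demethylase, read 20.2 and 14.2 against 18.2 and 19.3 TPM. Its log2 fold change was 0.14 (95% interval -0.43 to 0.70, limma adjusted p = 0.753). It was -0.10 without Hif1a-intact replicate 2, so the sign rested on that library. Egln3 and Egln1 fell. Egln3 read 55.6 and 52.7 against 12.9 and 13.3 TPM (log2 fold change -1.97, limma adjusted p = 0.00717). Egln1, the main oxygen sensor of the HIF pathway, read 24.0 and 20.6 against 8.50 and 8.81 TPM (log2 fold change -1.27, limma adjusted p = 0.0208). Without Hif1a-null replicate 1 neither passed (limma adjusted p = 0.125 for Egln3 and 0.267 for Egln1), nor without Hif1a-null replicate 2 (0.140 and 0.289), with fold changes of -1.94 to -1.99 and -1.24 to -1.29. The lower bounds of the 95% intervals of Kdm3a, P4ha1, Kdm4c, Kdm4b and Plod1 were -0.43, -0.56, -0.78, -0.91 and -1.02. The interval of Egln1 ran from -1.66 to -0.88 and overlapped those of Kdm4b and Plod1, and the interval of Egln3 ran from -2.31 to -1.63 and overlapped none of the 5. The difference between genes was not tested.

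Promoter stretches of these genes are shown because HIF-1 binds a short core, ACGTG or GCGTG, in its target promoters. Each stretch is 80 bases from the RefSeq promoter upstream of the start, on GRCm38.p6, written 5′ to 3′ on the gene's strand, with the core in it in capitals (CACGT where it reads on the other strand).
Egln3, chr12:54204045-54204124, minus strand: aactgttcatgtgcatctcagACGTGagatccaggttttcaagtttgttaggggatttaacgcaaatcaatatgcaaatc
Egln1, chr8:124949278-124949357, minus strand: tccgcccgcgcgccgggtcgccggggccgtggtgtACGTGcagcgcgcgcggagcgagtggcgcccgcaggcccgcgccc
Kdm3a, chr6:71632918-71632997, minus strand: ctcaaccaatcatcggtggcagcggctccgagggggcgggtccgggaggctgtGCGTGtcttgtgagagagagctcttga
P4ha1, chr10:59323216-59323295, plus strand: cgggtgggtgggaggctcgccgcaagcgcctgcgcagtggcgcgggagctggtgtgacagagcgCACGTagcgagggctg
Plod1, chr4:147936777-147936856, minus strand: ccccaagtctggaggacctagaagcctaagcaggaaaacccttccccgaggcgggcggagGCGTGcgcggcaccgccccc
Plod3, chr5:136986930-136987009, plus strand: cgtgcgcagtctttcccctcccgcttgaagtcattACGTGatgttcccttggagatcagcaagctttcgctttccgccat
Jmjd6, chr11:116843450-116843529, minus strand: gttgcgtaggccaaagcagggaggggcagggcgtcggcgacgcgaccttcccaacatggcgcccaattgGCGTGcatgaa
A core lay 229 bases before the start in Egln3 and 68 in Egln1, the genes of these that were called lower. It lay 27 bases before the start in Kdm3a, 16 in P4ha1 (on the opposite strand), 20 in Plod1, 54 in Plod3 and 11 in Jmjd6. None of these genes passed. In P4ha1, Plod1, Plod3 and Jmjd6 both Hif1a-null libraries were under both Hif1a-intact ones, as in 32.3% of all tested genes. Where RefSeq gave several starts the core nearest to a start is shown, and the other Kdm3a windows held none. In GENCODE, Kdm3a begins at base 71632990 and Egln1 at 124949324 (minus strand), so both cores lie inside the annotated gene. Windows ran from 250 bases before to 50 after the start. Of the 33 members with a window (Jmjd7 included), 21 held a core in at least 1, beside 46.7% of all genes with a window. By window the members had a core in 24 of 42 (57.1%), a higher share than the 43.8% of all 32851 windows. That difference was not tested. The core can lie within the E-box CACGTG. Of the 42 member windows it was present in 1 of Alkbh7 and 1 of Kdm4c, beside 7.15% of all windows. A match is letters in a sequence and does not show binding.

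Other enzymes of the class and the genes that supply their cosubstrate were read from fixed lists. Among 26 further family members with values, 20 were tested, and 3 passed, beside 7.27% of all tested genes. Egln3 and Egln1 were called lower and P3h4 higher, beside 2.02% and 5.25% of all tested genes. P3h4, a prolyl 3-hydroxylase relative thought to lack activity, read 0.0452 and 0.0141 against 1.85 and 1.3 TPM, and the filter fixed its direction. Its call, too, was lost without either Hif1a-null library. Asph, which hydroxylates aspartate and asparagine in secreted proteins, read 7.05 and 6.30 against 13.7 and 11.6 TPM (log2 fold change 0.83, limma adjusted p = 0.0589). The third EGLN enzyme, Egln2, read 7.52 to 8.35 TPM over all libraries, and Hif1an, the asparaginyl hydroxylase that blunts HIF activity, 11.4 and 11 against 12.4 and 13.1 TPM (limma adjusted p = 0.489). Kdm6a, the X-linked counterpart of Kdm6b, read 20.0 and 19.2 against 23.9 and 25.8 TPM (limma adjusted p = 0.241).

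None of 25 genes for the supply and removal of 2-oxoglutarate, succinate, fumarate and 2-hydroxyglutarate passed. An unadjusted limma p under 0.05 was reached by 3 of them, beside 23.2% of all tested genes. Idh2, the mitochondrial isocitrate dehydrogenase that makes 2-oxoglutarate, read 263 and 251 against 172 and 169 TPM (log2 fold change -0.59, limma adjusted p = 0.0779). Glud1, which makes 2-oxoglutarate from glutamate, read 312 and 339 against 240 and 251 TPM, and Ogdh, which consumes it, 65.4 and 54.3 against 43.0 and 44.4 TPM (limma adjusted p = 0.177 and 0.198). In all 3, which had the smallest p of the list, the groups were apart, as in 55.0% of all tested genes. Fh1 and Sdha, which remove the inhibitory metabolites fumarate and succinate, read 22.9 to 35.4 and 474 to 575 TPM with overlapping groups.

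**Figure D4:**
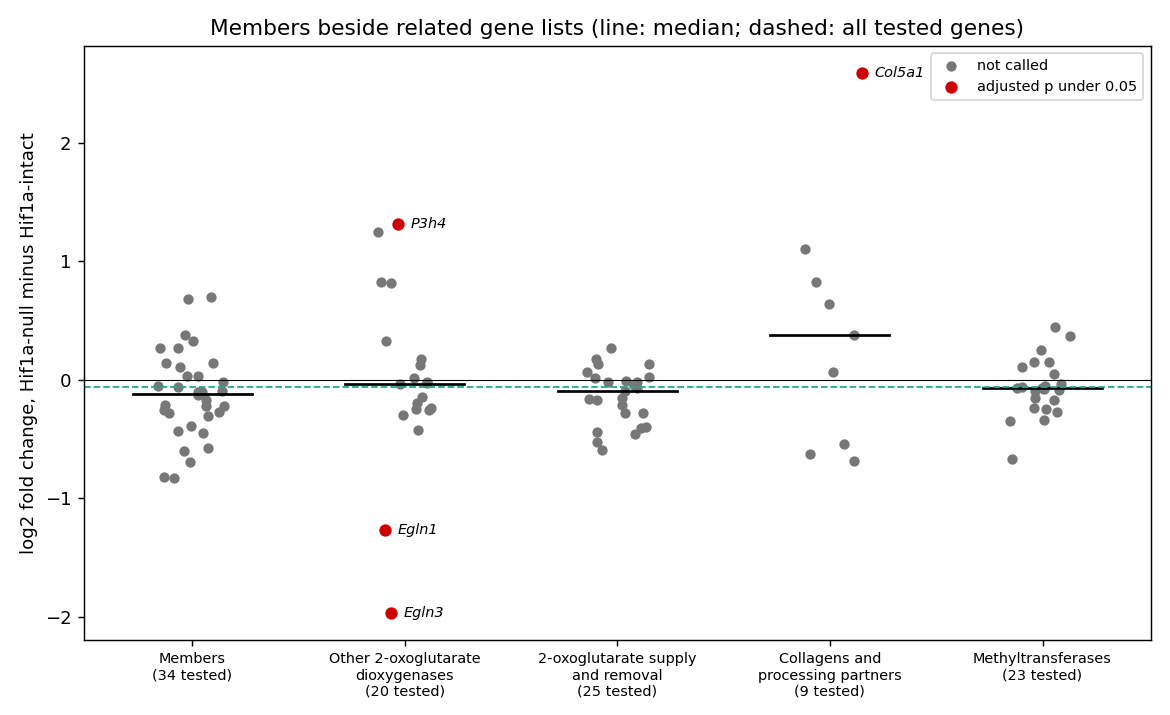
Log2 fold change, Hif1a-null minus Hif1a-intact (y axis), of tested genes in 5 lists (x axis), with the list median as a black line, the median of all tested genes dashed, and genes at a limma adjusted p under 0.05 in red. The red points are Egln3, Egln1, P3h4 and Col5a1, and no member is among them.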

How the data were processed

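Per the submitters' processing notes, kallisto and mm10 were used. Its version, transcript set and strand setting: not given in the sources used here. Gene-level TPM was deposited by the authors for each library, the unit being inferred from column sums of 955562 to 963135. TPM keeps no counts, so depth is unknown. kallisto can put a gene near 0 by its estimate: Rps12 read 6.26e-07 TPM in Hif1a-intact replicate 1 and 74.6 to 132 TPM in the others. Symbols for 27458 genes and coordinates came from GENCODE vM21 (GRCm38), promoters from RefSeq (GRCm38.p6).

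Groups were taken from the genotype labels. limma 3.58.1 in R 4.3.3 (lmFit, eBayes, two-sided) was fitted to log2(TPM + 1), which understates changes of low genes, with Benjamini-Hochberg adjustment over the 11909 genes that reached 1 TPM in 2 or more libraries. The test was run on simulated data. A blastn 2.17.0 search for copies required 95% identity across 50% or more of the shorter transcript, and 100 bases: 7 members had a copy, 2 of them in the table, and 12 share exon bases with another gene in the table. The genes described in full are Hif1a, Runx1, Tet2, Kdm6b, the 2 members of smallest p per subfamily and any genes that passed; others singled out were chosen after their values were seen. The members and lists were chosen with earlier results of these data known. Alternatives were other pseudocounts, filters, variance models, scalings and gene sets, sums with the matched genes in the table, and each library left out.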

Additional observations from a re-analysis of the deposited data

How the results depend on the processing

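The count of 0 called members held in every alternative that kept all 4 libraries. With 1 library left out it ran from 0 to 3. Over all tested genes the count, 866 in the reported fit, was 568 with no filter on low values and ran from 0 to 1019 with 1 library left out, the lowest values coming when a Hif1a-null library was left out; the cause was not tested. Quantile normalization moved the share of calls that were higher from 72.2% to 64.0%. Of 34 tested members 24 kept their direction in every alternative, and among the 510 member values under alternatives 19 turned and 4 became called. None of the turned log2 fold changes was called. Jmjd4 turned, to 0.25, only when summed with Snap47, a separate gene that it overlaps on the opposite strand. That value is among the 19. Jmjd8 turned to 0.0233 (quantile), 0.0115 (median-ratio) and 0.0702 (100 most abundant genes left out). Tet3 turned to 0.026 and 0.0338 with quantile normalization and with abundant genes left out, and Fto to 0.0356 with abundant genes left out. With 1 library left out, log2 fold changes ranged from -0.10 to 0.38 for Kdm3a, -0.15 to 1.51 for Kdm4b, -0.083 to 0.73 for Kdm8, -0.38 to 0.45 for Jmjd1c, -0.13 to 0.0882 for Jmjd8, -0.34 to 0.13 for Tet1, -0.41 to 0.29 for Tet3 and -0.36 to 0.16 for Ogfod2. No paired analysis was possible because the labels give the libraries no shared replicate numbers. Depth is unknown, so what it limits cannot be stated, and a count of 0 called members from 2 libraries a group does not show that they were alike.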
